A study of Homo sapiens with 6 samples.

Results

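Expression of 8 genes was followed: the chloride intracellular channel genes *CLIC1*, *CLIC3*, *CLIC4*, *CLIC5* and *CLIC6*, the ERM linker genes *EZR* (ezrin) and *RDX* (radixin), and *PODXL* (podocalyxin), a membrane mucin that ezrin binds. The genes were taken by symbol from the 20347 rows of the gene table, and all 8 had a row. *CLIC5* was picked because it had one of the largest falls in these libraries, so it was chosen by its own log2 fold change between Control and SAMD1 KO, and its values are given as a description, with no test. RNA-seq was made from PaTu8988t cells, an established human cell line of pancreatic ductal adenocarcinoma (PDAC), grown in high-glucose DMEM with fetal bovine serum. The groups were 3 Control replicates, which carried an unspecific CRISPR vector, and 3 SAMD1 KO clones, in which *SAMD1* was disrupted with CRISPR/Cas9 and which were grown from independent single clones. The clones therefore differ from each other by their founder cell as well as by culture, and whether the Control replicates were clonal or separate cultures is not given in the sources used here.

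CLIC proteins share a fold with glutathione transferases and exist both in soluble form and at membranes. *CLIC4* and *CLIC5* proteins sit at the cortical actin cytoskeleton, and CLIC5 is known from the foot processes of kidney podocytes and the stereocilia of hair cells, where it lies in one complex with ezrin or radixin. ERM proteins bind membrane proteins with their amino-terminal FERM domain and actin filaments with their carboxy-terminal end, and phosphorylation together with the lipid PIP2 opens them for binding. SAMD1 is a repressor that binds unmethylated CpG islands, with GCGC as its preferred motif.

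The libraries held 35589477 to 45172216 reads, and the 10 most abundant genes took 3.81% to 4.07% of each. Values are normalized counts, that is reads divided by 1 size factor per library, so that 1 read was worth 0.864 normalized counts in the deepest library. *SAMD1* itself was lower in each library labelled SAMD1 KO than in each Control library, at 824.8 to 1082 against 2231 to 2382 normalized counts, a log2 fold change of −1.32 with a standard error (SE) of 0.10 (adjusted p = 0.000724 in limma). Of the epithelial markers checked, *KRT8*, *KRT18* and *EPCAM* were present in all libraries and *KRT19* was listed at 0 in all 6.

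The bases upstream of the start sites are shown for *CLIC4*, the member with the highest level in SAMD1 KO cells, for *CLIC5*, and for *EZR*, as the letters differ widely in the GCGC motif that SAMD1 prefers. The sequences are from RefSeq promoter windows on GRCh38.p14, are written 5′ to 3′ along the strand of the gene, and stop before the first annotated exon. Capitals mark GCGC, which reads the same on both strands, and overlapping matches were counted.
*CLIC4*, chr1:24745197-24745381, + strand: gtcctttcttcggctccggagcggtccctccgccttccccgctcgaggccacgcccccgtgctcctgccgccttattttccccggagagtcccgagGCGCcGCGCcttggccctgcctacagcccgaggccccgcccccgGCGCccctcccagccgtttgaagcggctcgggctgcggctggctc
*CLIC5*, chr6:46080349-46080598, − strand: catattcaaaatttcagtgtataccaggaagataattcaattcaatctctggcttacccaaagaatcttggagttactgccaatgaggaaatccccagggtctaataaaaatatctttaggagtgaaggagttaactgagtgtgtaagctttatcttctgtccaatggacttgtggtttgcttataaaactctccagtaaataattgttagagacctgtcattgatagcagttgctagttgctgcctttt
*CLIC5*, chr6:46015861-46016110, − strand: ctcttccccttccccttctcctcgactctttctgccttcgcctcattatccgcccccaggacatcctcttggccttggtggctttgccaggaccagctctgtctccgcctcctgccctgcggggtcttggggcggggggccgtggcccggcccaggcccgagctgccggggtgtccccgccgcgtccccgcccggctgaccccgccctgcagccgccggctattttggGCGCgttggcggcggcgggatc
*EZR*, chr6:158818236-158818485, − strand: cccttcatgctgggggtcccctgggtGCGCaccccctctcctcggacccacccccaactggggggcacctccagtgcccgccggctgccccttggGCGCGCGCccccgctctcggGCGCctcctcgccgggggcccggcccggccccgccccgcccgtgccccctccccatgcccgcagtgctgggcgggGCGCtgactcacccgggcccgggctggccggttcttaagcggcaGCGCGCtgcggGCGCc

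Counted over the 250 bases before each start, GCGC occurred 4 times at *CLIC4*, 9 times at *EZR*, 5 times at *RDX*, 3 times at *CLIC3* and 0 times at *CLIC1*. The *CLIC5* gene has 3 RefSeq starts. Its upstream bases held 8 matches at the start farthest from the gene body, 0 at the start printed first and 1 at the start printed second. The start with 8 matches is not printed, as its window begins within an annotated exon. The counts of CpG dinucleotides were 22, 0 and 23 at the 3 *CLIC5* starts, 30 at *CLIC4*, 28 at *EZR*, 38 at *RDX*, 15 at *CLIC3* and 11 at *CLIC1*. Of the 35116 promoter windows in the table, 53.4% held GCGC in these bases, and the median was 11 CpG. Letters in a window say nothing of whether SAMD1 was bound there, and the RNA counts do not tell the *CLIC5* starts apart. *CLIC6* and *PODXL* had no entry.

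Per kb of the annotated transcript, the order of levels in Control cells was *EZR* at 11681 ± 97.7, *CLIC4* at 8491 ± 347, *CLIC1* at 4326 ± 33.4, *RDX* at 1885 ± 62.0, *PODXL* at 1579 ± 71.6, *CLIC5* at 20.8 ± 1.54, *CLIC3* at 16.6 ± 1.97 and *CLIC6* at 0 normalized counts per kb (SD, n = 3). No neighbours in this order overlapped between Control libraries. Set among the 12690 tested genes with a transcript length, *EZR* ranked 183 and *CLIC4* ranked 279, while *CLIC5* ranked 11115. PaTu8988t cells thus held abundant *EZR*, *CLIC4* and *CLIC1* transcripts and little *CLIC5* or *CLIC3*. In SAMD1 KO cells *CLIC4* stood first, at 15555 ± 149, above *EZR* at 9612 ± 1452 normalized counts per kb (SD, n = 3), and its rank among all tested genes was 120. *PODXL*, at 2854 ± 660 normalized counts per kb, passed *RDX*, at 2013 ± 64.6, in all 3 clones, and its highest clone reached the lowest clone of *CLIC1*. These levels assume that the canonical GENCODE 44 transcript is the one expressed.

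Control and SAMD1 KO libraries were compared with limma, on log2(normalized count + 1), for the 12773 genes whose normalized counts averaged 10 or more. A call needed a log2 fold change above 0.5 or below −0.5 together with an unadjusted p under 0.01. The adjusted p is the Benjamini-Hochberg value over all tested genes. Of the 8 members 7 were tested, as *CLIC6* had no reads. *CLIC4* and *PODXL* were called higher, 2 of 7, where 5.77% of all tested genes were called higher. *CLIC5* was lower past the same limits, 1 of 7, where 2.08% of all tested genes were called lower and 7.85% were called in either direction, and nothing is read from this count because *CLIC5* was chosen for it. The 4 genes *CLIC1*, *CLIC3*, *EZR* and *RDX* were not called. The 3 Control libraries and the 3 clones did not overlap in 6 of the 7 tested members, where 37.8% of all tested genes did not overlap. These 6 include *CLIC5*, which was chosen for its fall, so nothing is read from this count either. The median log2 fold change was 0.09 for the 7 tested members and −0.0059 for all tested genes. With 3 libraries against 3, an exact permutation test of a single gene cannot give a p below 0.1. In bulk RNA, fewer or more cells that express a gene and less or more RNA per cell cannot be told apart.

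**Figure D1:**
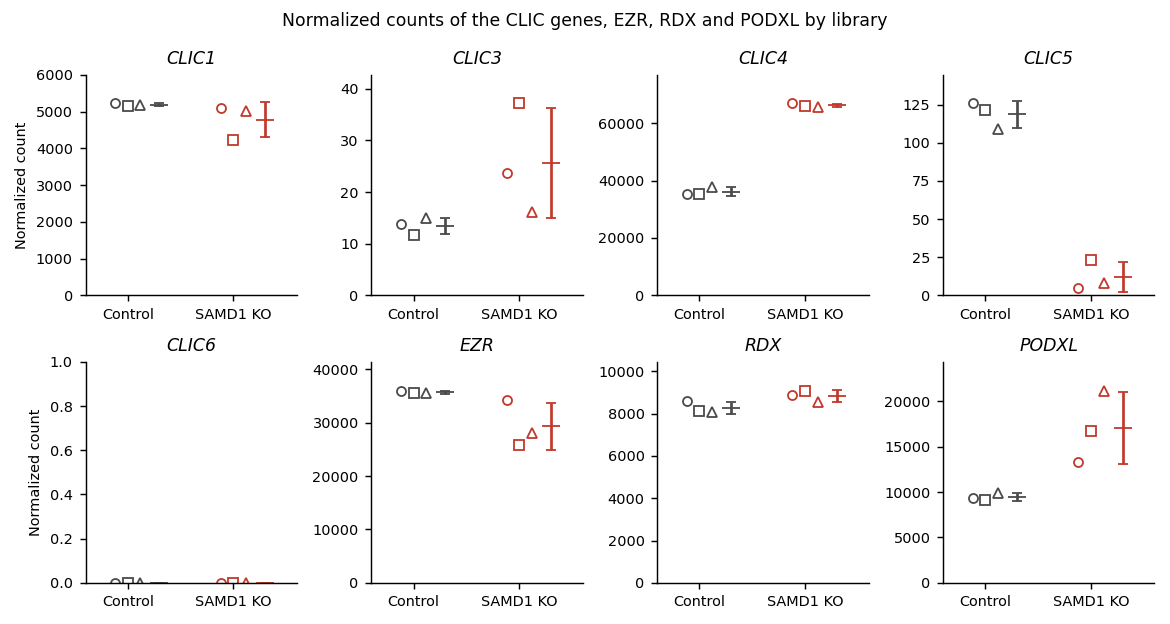
Normalized counts of the 8 genes in each library (y axis, from 0, a separate scale for each gene), with circles, squares and triangles for replicates or clones 1, 2 and 3 and a bar at the mean ± SD (n = 3). The SAMD1 KO clones of *CLIC4* sit between 65599 and 66846, all above the Control libraries, those of *CLIC5* between 4.94 and 23.3, all below them, and *CLIC6* is at 0 throughout.

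*CLIC4*, a CLIC protein of the cortical actin and the nucleus, lies on chromosome 1 (GRCh38, 24745382 to 24844321). Its normalized counts were 35319, 35204 and 37818 in Control replicates 1 to 3 and 66846, 66019 and 65599 in SAMD1 KO clones 1 to 3. All clones were above all Control libraries, and the clones lay closer to each other than the Control libraries did. The mean rose from 36113 ± 1477 to 66154 ± 634 (SD, n = 3 each), a ratio of 1.83 and a log2 fold change of 0.87 (SE 0.06, adjusted p = 0.000402 in limma). On the log2 scale the SD among the 3 clones was 0.014, and 99.0% of the tested genes had a larger one. Under the alternatives run, the log2 fold change of *CLIC4* lay between 0.86 and 0.91.

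*PODXL*, the mucin-like anti-adhesive protein of podocytes and some carcinoma cells, lies on chromosome 7 (131500262 to 131558217). It had 9343, 9088 and 9924 normalized counts in the Control libraries and 13307, 16760 and 21182 in clones 1 to 3. Again all clones were above all Control libraries, but here the clones differed, with clone 1 the lowest and clone 3 the highest. The mean rose from 9452 ± 429 to 17083 ± 3948 (SD, n = 3 each), with a log2 fold change of 0.83 (SE 0.15, adjusted p = 0.0146 in limma). Relative to the Control mean, the clones stood at ratios of 1.41, 1.77 and 2.24. *PODXL* was called with any library left out, with log2 fold changes of 0.66 without clone 3 to 1.00 without clone 1 and limma adjusted p-values of 0.00222 to 0.0757.

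*CLIC5* lies on chromosome 6 (45880827 to 46080348) and was expressed at a low level in Control cells. Its normalized counts were 125.8, 121.3 and 108.8 in the Control libraries and 4.94, 23.3 and 8.10 in the clones, from 110, 124 and 95 reads against 5, 27 and 9 reads. The clones were all below the Control libraries, and clone 2 kept the most. The Control mean was 118.7 ± 8.81 and the mean of the clones 12.1 ± 9.83 (SD, n = 3 each), so that the Control mean was 9.79 times the KO mean. The log2 fold change was −3.45, which placed *CLIC5* at rank 6 from the bottom among the 12773 tested genes, and the clones taken singly were at −4.33, −2.30 and −3.71. The value was −2.63 with a pseudocount of 10, which by construction weighs on so few reads, and −4.02 without clone 2.

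Of the related pair, *CLIC4* stood above the Control level in every clone and *CLIC5* below it. The side of *CLIC5* was fixed by its choice, so nothing is read from this contrast. Per kb, *CLIC4* exceeded *CLIC5* by ratios of 377, 389 and 466 in the Control replicates, and by 18139, 3797 and 10872 in the clones. The higher ratios in the clones carry the same choice, and those in clones 1 to 3 rest on 5, 27 and 9 reads of *CLIC5*. Because *CLIC5* made up 0.144% to 0.174% of the summed CLIC level per kb in Control cells, its loss hardly moved the sum. The sum over the 5 CLIC genes was 12606 to 13255 normalized counts per kb in Control libraries and 19110 to 20000 in the clones. *CLIC4* accounted for 65.4%, 65.7% and 67.1% of it in the Control libraries and for 78.6%, 81.2% and 78.6% in the clones, and *CLIC1* for most of the rest.

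*CLIC1*, a broadly expressed CLIC protein with glutaredoxin-like activity, lies on chromosome 6 (31730581 to 31739763). It had 5227, 5147 and 5187 normalized counts in the Control libraries and 5098, 4241 and 5023 in the clones. The groups did not overlap, yet clones 1 and 3 stood close to the Control level and clone 2 lower (log2 fold change −0.12, SE 0.08, adjusted p = 0.337 in limma). Without clone 2 the log2 fold change was −0.036. A few exonic bases of *CLIC1* are shared with *DDAH2* (37 bases, same strand) and *MSH5* (35 bases, opposite strand).

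*CLIC3*, a CLIC protein tied to the recycling of membrane cargo from late endosomes, lies on chromosome 9 (136994608 to 136996568) and was scarce. Its normalized counts were 13.7, 11.7 and 14.9 in the Control libraries and 23.7, 37.1 and 16.2 in the clones, from 12 to 13 reads per Control library and 18 to 43 reads per clone. The clones were all above the Control libraries, with clone 3 just above them. The log2 fold change was 0.81 (SE 0.34, adjusted p = 0.166 in limma) and did not pass the test. *CLIC6* (chromosome 21, 34668994 to 34718227) had no read in any library, which at 3 reads per library allows at most 2.59 to 3.44 normalized counts, for counting error only.

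**Figure D2:**
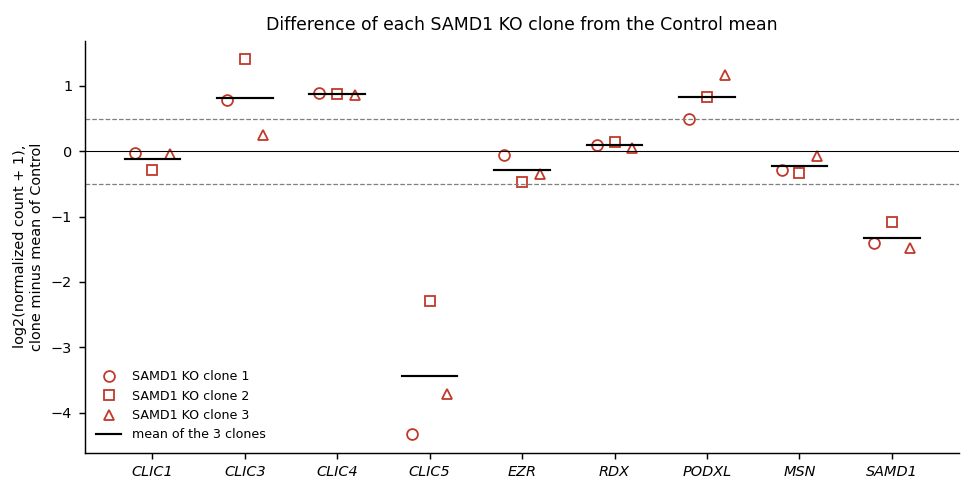
Difference of each SAMD1 KO clone from the Control mean on the log2(normalized count + 1) scale (y axis) for the 7 tested members, *MSN* and *SAMD1* (x axis). Symbols are clones 1 to 3, black lines are the mean of the 3 clones, and dashed lines mark 0.5 and −0.5; the clones of *CLIC4* coincide near 0.87, while those of *CLIC3*, *CLIC5* and *PODXL* are spread.

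*EZR*, the main ERM gene of epithelial cells, lies on chromosome 6 (158765741 to 158819368). It had 35996, 35480 and 35479 normalized counts in the Control libraries and 34283, 25730 and 27998 in the clones. Clone 1 stood near the Control libraries and clones 2 and 3 below them, and no clone overlapped with Control. The Control mean was 35652 ± 298 and that of the clones 29337 ± 4431 (SD, n = 3 each), with a log2 fold change of −0.29 (SE 0.10, adjusted p = 0.111 in limma) that did not pass the test. Without clone 1 the log2 fold change was −0.41 (adjusted p = 0.00574 in limma), still within the fold limit of 0.5. *EZR* shares 24 exonic bases with *EZR-AS1* on the opposite strand.

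*RDX*, known from liver canaliculi and stereocilia, lies on chromosome 11 (109864295 to 110296712). Its normalized counts were 8592, 8149 and 8095 in the Control libraries and 8893, 9093 and 8533 in the clones. It was the only tested member whose groups overlapped, with a log2 fold change of 0.09 (SE 0.05, adjusted p = 0.267 in limma). The 40 tested genes around *RDX* had median log2 differences from the Control mean of −0.085, −0.12 and −0.085 in clones 1 to 3, and with these removed its log2 fold change was 0.20. Around *CLIC5* the same medians were −0.029, −0.051 and 0.027, and around *PODXL* 0.039, −0.0098 and 0.0016. Around *CLIC4* they were 0.0078, −0.015 and −0.11.

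The third ERM gene is *MSN* (moesin), which is no member and was brought in to complete the family. It had 17494, 17358 and 17258 normalized counts in the Control libraries and 14216, 13761 and 16548 in the clones (log2 fold change −0.23, SE 0.08, adjusted p = 0.0891 in limma), and it was not called. Summed per kb, the 3 ERM genes came to 17826 to 18168 normalized counts per kb in Control libraries and to 16848, 13976 and 15295 in clones 1 to 3. *EZR* held 64.9% to 65.2% of this sum in Control libraries, and 66.7%, 60.3% and 60.0% in the clones. The share of *RDX* was 10.3% to 10.8% in Control libraries and reached 14.8% in clone 2. None of the 3 ERM genes was called, while *PODXL*, which ezrin links to actin, was called higher.

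**Figure D3:**
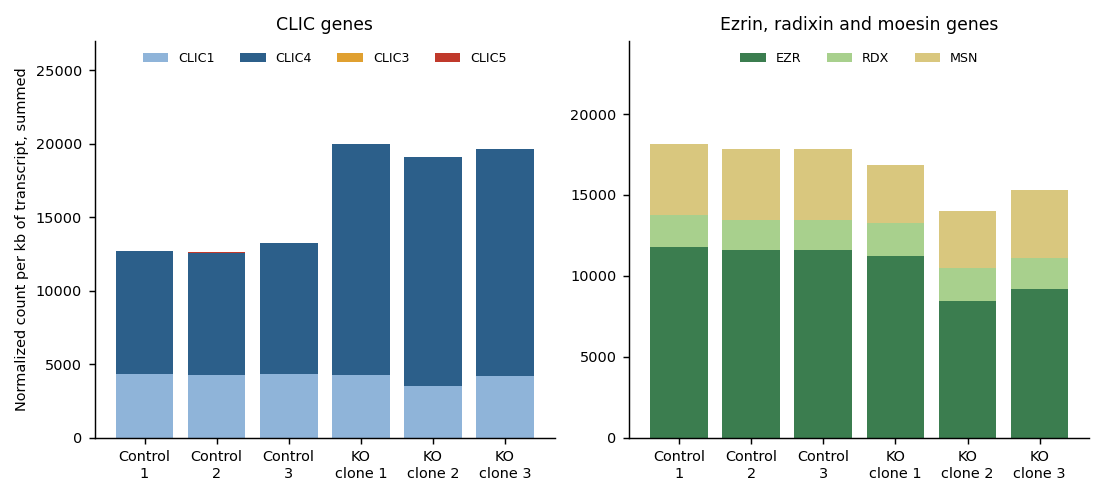
Normalized counts per kb of transcript, stacked for the CLIC genes (left) and for *EZR*, *RDX* and *MSN* (right), in each library (x axis). The CLIC sum lies between 12606 and 13255 in Control libraries and between 19110 and 20000 in the clones; *CLIC3* and *CLIC5* are too scarce to be seen at this scale.

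Genes that work with ERM proteins were described in 5 lists of 78 genes, of which 64 were tested. Of these, 7 were called higher and 4 lower, where 5.77% of all tested genes were called higher and 2.08% lower. The median log2 fold change was 0.014 for the 64 list genes, against −0.0059 for all tested genes. Levels of list genes are means ± SD (n = 3 each). The FERM relatives of ezrin held 3 genes called higher and 2 called lower among 13 tested. *FRMD4A*, a FERM scaffold of cell polarity proteins, fell from 1759 ± 26.4 to 642.1 ± 196 normalized counts (log2 fold change −1.49, SE 0.19, adjusted p = 0.00367 in limma). *FRMD6*, a FERM protein upstream of the Hippo pathway, fell from 19388 ± 385 to 11069 ± 1756 (log2 fold change −0.82, SE 0.11, adjusted p = 0.00399 in limma). *EPB41L4B*, *EPB41L4A* and *FRMD5*, which are FERM proteins of the protein 4.1 kind, rose with log2 fold changes of 0.53, 0.89 and 0.85. *EPB41L4B* stood close to the fold limit, at 0.50 without Control replicate 1 and 0.48 without clone 3, where it was not called.

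Of the 7 tested scaffolds and regulators 1 was called. *ARHGDIB*, a GDP dissociation inhibitor, fell from 471.4 ± 22.7 to 174.7 ± 88.4 normalized counts (log2 fold change −1.57, SE 0.37, adjusted p = 0.0351 in limma). It was not called with any 1 of the Control replicates left out, at log2 fold changes of −1.56, −1.55 and −1.61. Its ubiquitous relative *ARHGDIA* (−0.18, adjusted p = 0.216 in limma) and *SLC9A3R1* (−0.07, adjusted p = 0.484 in limma), which encodes NHERF1, the adaptor between ezrin and podocalyxin, were not called. Among the 19 kinases and other regulators of ERM activity, 2 were called, both higher. *PIP5K1B*, which makes PIP2, rose from 120.8 ± 5.60 to 262.6 ± 79.8 (log2 fold change 1.07, SE 0.22, adjusted p = 0.0234 in limma). *PRKCQ*, a protein kinase C that can phosphorylate ERM proteins, rose from 593.9 ± 36.1 to 862.6 ± 116 (log2 fold change 0.53, SE 0.11, adjusted p = 0.0248 in limma), and it was not called without Control replicate 1 (0.48) or clone 3 (0.44). The kinase gene *STK24* had a log2 fold change of −0.12 (adjusted p = 0.137 in limma).

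Of the 11 tested membrane partners of ERM proteins, 0 were called by limma, while 4 had an unadjusted p under 0.05. edgeR and DESeq2 on 5 libraries, without clone 1, also called 0. With clone 2 left out limma called *ICAM1*, a leukocyte adhesion receptor, higher, and with the replicate number as a block it called *L1CAM* higher. *SLC9A3*, the sodium-proton exchanger of the brush border, was at −0.19 (adjusted p = 0.0971 in limma). The adhesion molecule *L1CAM* was at 1.85 (adjusted p = 0.13 in limma), with 3.91 to 20.6 normalized counts in Control libraries and 23.3 to 92.9 in the clones. The 40 tested genes around *L1CAM* had median log2 differences from the Control mean of 0.90, −0.020 and −0.071 in clones 1 to 3. With these removed the log2 fold change of *L1CAM* was 1.58, and the part of the region in its rise was not tested. Of the 14 tested genes of microvilli and stereocilia, 2 were called higher and 1 lower. *EPS8*, which caps and bundles actin at microvillus tips, rose from 478.8 ± 19.8 to 1041 ± 131 normalized counts (log2 fold change 1.11, SE 0.11, adjusted p = 0.00137 in limma), and *MARCKS*, which binds PIP2 and actin, had a log2 fold change of 0.55. *BAIAP2L1*, a membrane-bending partner of EPS8, fell from 1753 ± 35.7 to 1051 ± 223 (log2 fold change −0.76, SE 0.14, adjusted p = 0.0137 in limma). The actin bundler *PLS1* was at 0.41, within the fold limit (adjusted p = 0.00574 in limma).

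**Figure D4:**
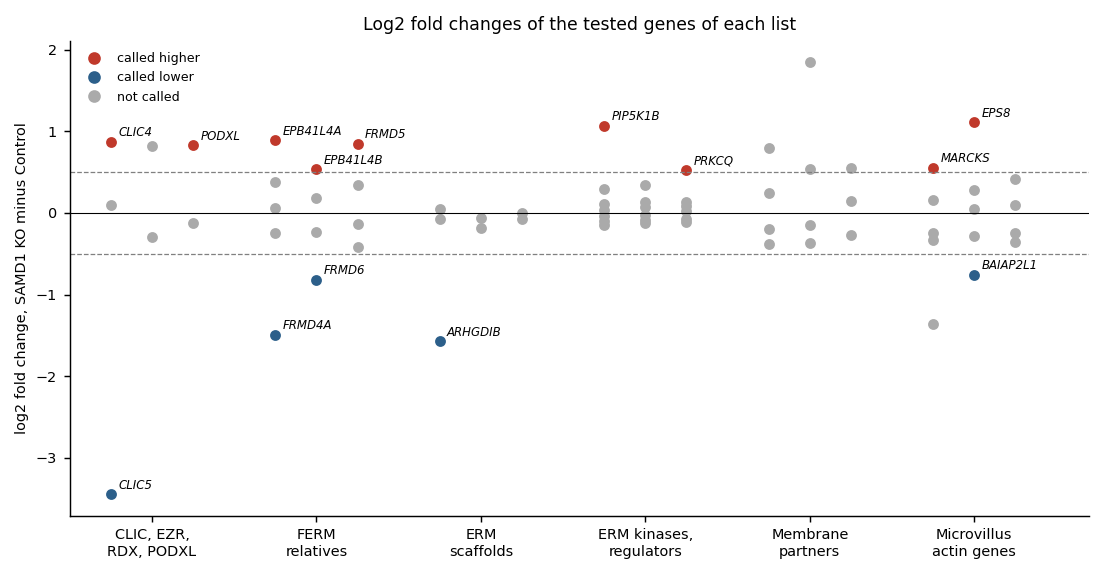
Log2 fold change of SAMD1 KO minus Control (y axis) for each tested gene of the members and the 5 lists (x axis). Red and blue points were called higher and lower, grey points were not called, and dashed lines mark 0.5 and −0.5; called genes are named, and each of the lists except the membrane partners holds at least 1.

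*CLIC4*, *CLIC5* and *CLIC6* lie in paralogous regions, each between a *RUNX* transcription factor gene and an *RCAN* calcineurin regulator gene. Beside *CLIC5*, *RUNX2* (chromosome 6, 45328157 to 45664349) had 210.5, 180.03 and 244.0 normalized counts in the Control libraries and 449.9, 807.8 and 494.7 in the clones. It rose in all clones (log2 fold change 1.42, SE 0.23, adjusted p = 0.00912 in limma), with clone 2 the highest, while *CLIC5* was below Control in all of them. *RCAN2*, on the other side of *CLIC5*, had at most 11.7 normalized counts and was not tested. Beside *CLIC4*, *RCAN3* was at 495.3, 494.1 and 509.7 in the Control libraries and 787.1, 570.2 and 474.0 in the clones (log2 fold change 0.26, adjusted p = 0.364 in limma), and *RUNX3* had at most 6.05 normalized counts. Beside *CLIC6*, *RUNX1* was expressed at 1551 ± 29.8 and 1536 ± 124 normalized counts (log2 fold change −0.02, adjusted p = 0.902 in limma). *RCAN1* rose from 1742 ± 46.4 to 4140 ± 1743 (SD) with a log2 fold change of 1.14 (SE 0.31), called on the unadjusted p, with an adjusted p = 0.0525 in limma. It lost its call without any 1 of the Control replicates (between 1.12 and 1.16), without clone 2 (0.88) and without clone 3 (1.00). *CLIC2*, the remaining family gene with a value, had 9.15 to 13.7 normalized counts in Control libraries and 9.50 to 24.7 in the clones (log2 fold change 0.17, adjusted p = 0.822 in limma), and its direction turned without clone 1.

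**Figure D5:**
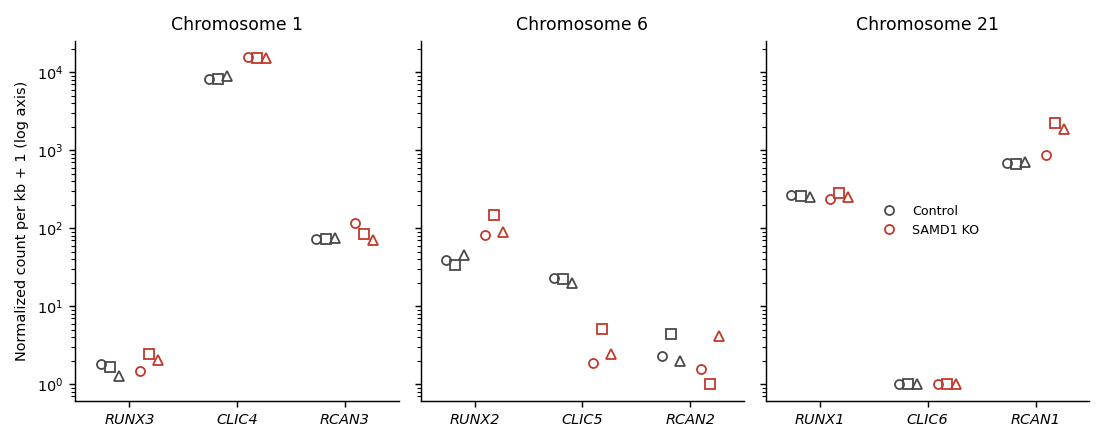
Normalized counts per kb of transcript plus 1 (y axis, log scale) of *CLIC4*, *CLIC5* and *CLIC6* with their *RUNX* and *RCAN* neighbours, by library, with black symbols for Control and red for SAMD1 KO. *CLIC5* lies lower and *RUNX2* higher in all 3 clones, and *CLIC6* is at 0 in all libraries, drawn at 1.

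The genes whose pattern over the 6 libraries was most like that of *CLIC5*, among those averaging 50 normalized counts or more, were *CHST14*, *ADM*, *UNKL*, *TRIM32* and *FAM117A*, with Pearson r between 0.995 and 0.996 on the log2 scale. This is a description, since the 6 libraries fall into 2 groups and *CLIC5* was chosen for the difference between them. All 5 genes shared with *CLIC5* the order of the clones, with clone 1 lowest, clone 3 next and clone 2 highest. This order was largely fixed by choosing the genes for their likeness over the same libraries. Their sizes differed: *ADM*, the gene of the peptide hormone adrenomedullin, went from 4828 ± 94.8 to 1218 ± 760 normalized counts (log2 difference −2.16), while *CHST14* was at −0.54 and *UNKL* at −0.32.

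Markers of other cell types were checked too. Podocytes are named here because *PODXL* and *CLIC5* are known from them: *WT1* was listed at 0 in all libraries, and *NPHS1* had 5.87 to 8.02 normalized counts in Control libraries and 12.9 to 24.2 in the clones (log2 fold change 1.23, adjusted p = 0.0561 in limma, called higher on the unadjusted p). The 3 endothelial markers summed to 77.8 to 84.8 in Control libraries and 33.6 to 83.6 in the clones. Of them *CDH5* had 29.4 to 37.7 normalized counts in Control libraries and 2.97, 17.3 and 11.7 in clones 1 to 3, from 3, 20 and 13 reads. It did not overlap between the groups (log2 fold change −1.80, adjusted p = 0.0748 in limma) and was not called. *PECAM1* and *VWF* overlapped between the groups. The leukocyte markers summed to 355.1 to 369.8 and 244.5 to 328.3 normalized counts, nearly all from *CD68*, with *CD3E* at 0. The fibroblast markers summed to 163.8 to 165.4 and 148.4 to 443.2, with *COL3A1* at a log2 fold change of 1.13 (adjusted p = 0.0881 in limma) and *COL1A1* at −1.04 (adjusted p = 0.098 in limma), neither of them called. The 5 epithelial markers summed to 62681 to 65891 in Control libraries and 67617 to 108553 in the clones. Of their 4 tested genes 2 were called higher, where 5.77% of all tested genes were. These were *KRT7* (adjusted p = 0.00392 in limma) and, on the unadjusted p only, *KRT18* (adjusted p = 0.0598 in limma). Clone 3 stood at 1.12 times the Control mean of *KRT18*. The part of these differences in the changes of *CLIC4*, *CLIC5* and *PODXL* was not tested.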

How the data were processed

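Of PaTu8988t RNA-seq libraries (TruSeq Stranded mRNA), 3 Control and 3 SAMD1 KO were grouped by their labels. The authors aligned reads with RNA-STAR to the GenCode transcriptome, counted them per gene (featureCounts and hg38 in the submitters' notes, strand setting not given) and deposited counts divided by DESeq2 size factors, a normalized signal per gene. A deposited table of the authors' comparison (mean, log2 fold change, standard error, statistic, p and adjusted p) was not used.

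Every value above 0 was a whole multiple of the library's smallest value (100%, tolerance 0.02). limma 3.58.1 (R 4.3.3, trend, two-sided) was run on log2(signal + 1), with a mean of at least 10. On simulated counts for 12773 genes it recovered 194 of 200 changed genes and called 7 unchanged ones. The simulation gave every gene the same dispersion in both groups and added no spread between clones. These counts are therefore a check of the code and no error rate for the clones. Alternatives were pseudocounts of 0.1 and 10, no filter or a mean of at least 50, 75th percentile scaling, a block for the replicate number, leaving out each library, an adjusted p below 0.05 in the call, and removing the median shift of 40 neighbouring genes. edgeR 4.0.16 and DESeq2 1.42.0 were run on 5 libraries, without clone 1, a choice made after seeing the data. A check of whether whole reads can be recovered refused clone 1, as its smallest value above 0 was 0.989, close to 1. This refusal may be a false alarm, since the values of clone 1 were whole multiples too.

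Positions are from GENCODE 44 (19734 of 20347 symbols, 188 through synonyms). Members, lists and tests were chosen with earlier results of these data known. Named are the members, *SAMD1*, the *RUNX*, *RCAN* and *CLIC2* genes, the 3 genes of each list with the smallest p, the 5 genes most like *CLIC5*, and markers. *MSN*, *EPB41L4A*, *FRMD5*, *MARCKS* and *ICAM1* were chosen after their values were seen. Some genes of these lists are not reported here. P-values measure the spread between these libraries.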

Additional observations from a re-analysis of the deposited data

How the results depend on the processing

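*CLIC4* and *PODXL* were called higher, and *CLIC1*, *CLIC3*, *EZR* and *RDX* were not called, with the same sign, under every alternative in which they were tested. *CLIC5*, chosen for its fall, stayed below Control in each, with no test. Calls over all tested genes ran from 751 to 1208 with 1 library left out in limma and from 851 to 1110 on all 6 libraries, and were 1221 in edgeR and 1226 in DESeq2 without clone 1. The list genes called ran from 8 to 12 and from 11 to 12, and were 11 and 13. The median log2 fold change of the members ran from 0.074 to 0.12 with 1 library left out. It was −0.013 with a mean of at least 50, where *CLIC3* drops out, and 0.20 with the regional shift removed. With 1 library left out, *RUNX1* ran from −0.078 to 0.038 and *CLIC2* from −0.25 to 0.40. *RUNX1* changed sign with 75th percentile scaling (0.0021), without clone 1 (0.038), with the regional shift removed (0.0031), in edgeR (0.046) and in DESeq2 (0.040) on 5 libraries. *CLIC2* changed sign without clone 1 (−0.25), with the regional shift removed (−0.11), in edgeR (−0.29) and in DESeq2 (−0.29), and *SLC9A3* with the regional shift removed (0.014). The cause was not tested. edgeR and DESeq2 on all 6 libraries were not run.

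With the replicate number as a block, 984 genes, 12 list genes and 3 members (*CLIC5* among them) were called, against 1003, 11 and 3 without the replicate block. The list gene gained was *L1CAM* (1.85, limma adjusted p = 0.0346). The deviations of same-numbered libraries from their group means correlated with r of 0.039, 0.13 and 0.032. Every library correlated best with its own number except Control replicate 3, at 0.036 with clone 1 and 0.032 with clone 3. Whether same-numbered libraries share more than a number cannot be told from so few small values. Over 27 genes, 402 values were recomputed, of which 378 kept direction and call, 13 lost the call, 1 gained it and 10 changed sign. *CLIC3* rests on 12 to 43 reads per library and *CLIC5* on 5 to 27 per clone.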
